A study of Mus musculus with 6 samples.

Results

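The 40 genes described here encode enzymes that remove superoxide and peroxides, the glutathione and thioredoxin systems that recharge those enzymes, glutathione transferases, and the metallothioneins, small metal-binding proteins. They were listed by name, and 37 of the 40 had at least 1 probe set with a single gene symbol in the platform table. Each of these 37 was read from its brightest probe set, and all 37 passed the filter on dim probe sets and were tested among 12946 genes. Prdx1, Prdx5 and Prdx6 had no such probe set and were not analysed here. RNA was taken from whole hearts of 3 wild-type (WT) mice and of 3 mice null for estrogen-related receptor alpha (ERRα, the product of Esrra), labelled KO. Per the labels all 6 animals were male and were studied under basal conditions. Strain C57BL/6J and an age of 2 to 3 months are given for 5 of them, and WT 1 has no entry for either. The labels do not describe the null allele. They do not say that ERRα was removed from the heart alone, and 1 array was used per heart.

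Superoxide dismutases turn superoxide into hydrogen peroxide, which catalase, glutathione peroxidases and peroxiredoxins then reduce. Glutathione and thioredoxin supply the electrons and are themselves restored by reductases that use NADPH. The heart is rich in mitochondria, which are a main source of superoxide, and they hold a set of these enzymes of their own. ERRα is a nuclear receptor that activates many genes of mitochondrial energy metabolism, and the genes were accordingly divided into mitochondrial enzymes (Sod2, Prdx3, Prdx5, Txn2, Txnrd2 and Glrx2) and cytosolic, secreted or other ones.

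Esrra, the targeted gene, read 368.1, 394.4 and 349.1 in WT, while the libraries labelled KO 1, KO 2 and KO 3 stood at 180.1, 24 and 18 (log2 difference -2.58, SE 0.283, limma adjusted p = 3.8e-09). The library labelled KO 1 was thus at 48.6% of the WT mean, against 6.48% and 4.86% for KO 2 and KO 3, which goes against its label. Directions below are for the libraries as labelled, and calls among the 37 and the pathway genes that change without KO 1 are given with their values. The position of this probe set against the deletion was not known here. Signals were compared as log2(signal + 16) with limma, two-sided, and a gene was called at a Benjamini-Hochberg adjusted p under 0.05 over all genes tested. Differences are KO minus WT on that scale, which understates changes of dim genes. The values were taken as deposited, with median signals per array from 12.4 to 16, WT 1 being the brightest. The cardiomyocyte markers summed to 39582.4 to 44642.1 in WT and 38469.8 to 41566.9 in KO, and 0 of 6 passed in limma (0 at an unadjusted p under 0.05).

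Of the 37 genes, 1 rose and 3 fell in the hearts labelled KO. Gpx3, the secreted glutathione peroxidase of plasma, rose. Gsto1, Gsta4 and Gstk1, which are glutathione transferases of the omega, alpha and kappa classes, fell. Over all genes tested 1.78% were called higher and 1.18% lower, against 2.7% and 8.11% of the 37. All 3 KO signals lay below all 3 WT signals for 7 of the 37 and above them for 1, and over all genes the shares were 9.41% and 6.81%. Negative differences made up 54.1% of the 37 and 55.0% of all genes. The median difference of the 37 was -0.0050, and that of all genes was -0.028. The median of the 37 thus lay close to that of all genes, and the calls lay in the transferases and in 1 peroxidase.

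**Figure D1:**
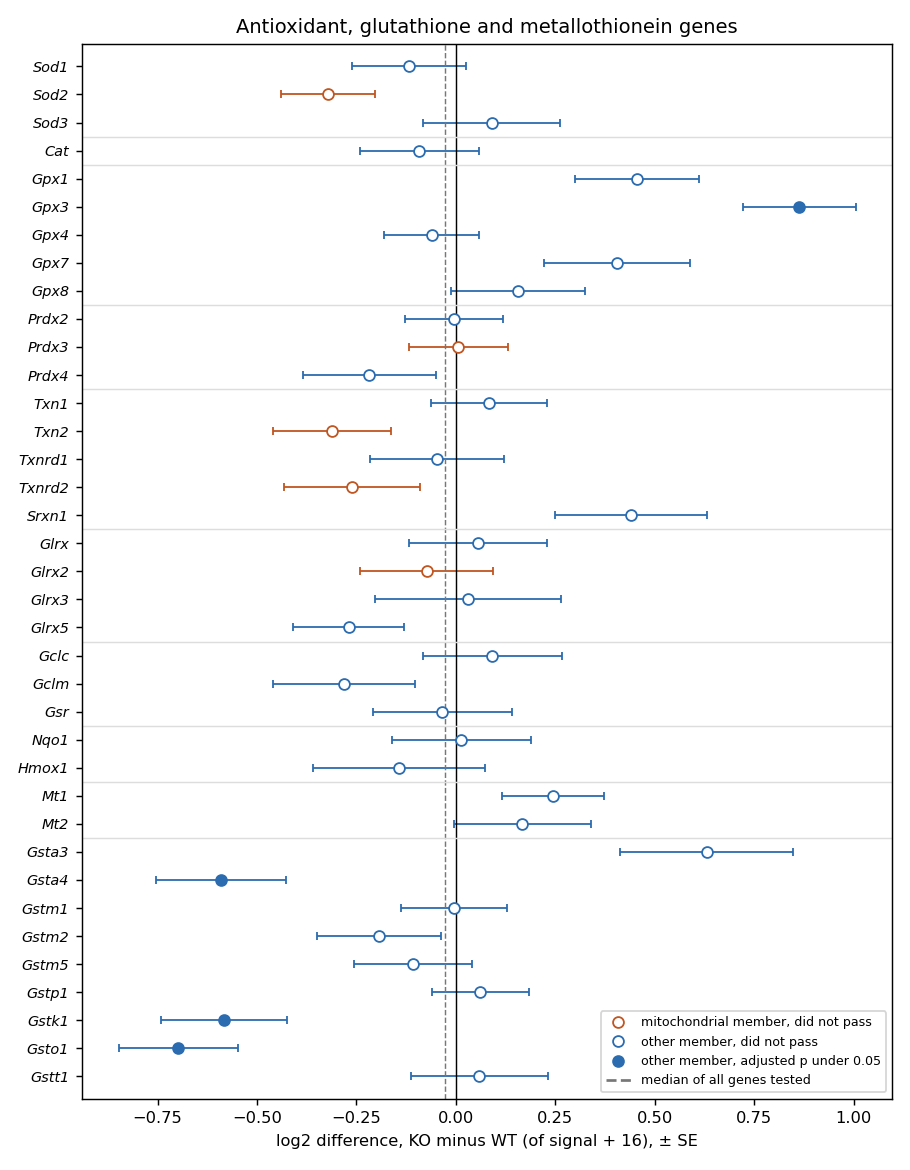
The horizontal axis gives the log2 difference (KO minus WT, of signal + 16) with its SE for each of the 37 genes, ordered by role from the superoxide dismutases at the top to the transferases at the bottom; 3 hearts per group. Filled points are the 4 genes past the adjusted p of 0.05, orange marks mitochondrial genes, and the dashed line is the median of all genes tested. Gpx3 lies farthest to the right at 0.86 and Gsto1 farthest to the left at -0.70.

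The sequences before the annotated starts of the called genes are shown because these genes moved in opposite directions in hearts labelled null for a DNA-binding receptor. Each line holds the 250 bases before the start, 5′ to 3′, from the RefSeq promoter table on GRCm38.p6. They lie at chr6:42245685-42245934 for Gstk1, chr19:47854723-47854972 for Gsto1 and chr11:54902604-54902853 for Gpx3, all on the plus strand. Capitals mark matches, on either strand, to any of the motifs named after them.
Gstk1: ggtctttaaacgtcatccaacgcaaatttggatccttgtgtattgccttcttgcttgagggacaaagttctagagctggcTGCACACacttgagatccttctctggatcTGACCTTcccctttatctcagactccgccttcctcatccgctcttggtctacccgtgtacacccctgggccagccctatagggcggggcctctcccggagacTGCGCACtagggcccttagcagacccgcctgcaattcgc
Gsto1: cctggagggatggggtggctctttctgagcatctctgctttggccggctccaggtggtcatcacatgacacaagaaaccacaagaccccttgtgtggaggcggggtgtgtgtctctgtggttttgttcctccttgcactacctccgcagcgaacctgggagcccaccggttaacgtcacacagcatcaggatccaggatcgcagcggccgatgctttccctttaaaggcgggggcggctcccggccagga
Gpx3: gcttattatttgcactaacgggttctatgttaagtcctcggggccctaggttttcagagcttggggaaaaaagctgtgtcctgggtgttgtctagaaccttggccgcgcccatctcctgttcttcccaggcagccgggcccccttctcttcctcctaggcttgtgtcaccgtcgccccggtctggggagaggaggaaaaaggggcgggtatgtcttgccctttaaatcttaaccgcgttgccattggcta

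The motifs searched on both strands were the estrogen-related receptor element TCAAGGTCA, the half-site AAGGTCA that is part of it, the core of the antioxidant response element TGACNNNGC, and the metal response element cores TGCGCNC and TGCACNC. Of 32851 windows of the same length in the table, 0.387%, 4.08%, 10.2%, 12.5% and 10.4% held them, in that order. Promoter entries were matched by symbol for 32 of the 37 genes. A gene was counted if any of its windows held the motif, so counts of genes are not on the scale of the shares per window. The full element was in 0 of the 32 and the half-site in 2, Gstk1 and Glrx3. In Gstk1 it reads TGACCTT in the printed strand, with its first base 141 bases before the start, and the 2 other runs of capitals are metal response element cores. Neither Gsto1 nor Gpx3 held any of these letters. The antioxidant core was in 6 of the 32 genes (Sod1, Txnrd1, Gclm, Mt2, Gsta3 and Gstm5), and the metal cores TGCGCNC and TGCACNC were in 9 and 5. These matches describe the windows only, and Gsta4 was named without a sequence.

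Gsto1, whose product reduces oxidised thiols and dehydroascorbate with glutathione, gave 1338.7, 1081.5 and 1107.2 in the WT hearts (1 to 3, here and below) against 920.9, 657.8 and 604.2 in the KO hearts. Every KO signal was below every WT signal, and KO 1 lay nearest to WT. The log2 difference was -0.70 (SE 0.150, n = 3 each, limma adjusted p = 0.00266). Its other probe set, which may share probes with other transcripts, gave 970.7, 754.1 and 709.9 in WT against 695.8, 447.0 and 547.6 in KO, again without overlap, with a difference of -0.52 and a limma adjusted p of 0.0813 among all probe sets. Gsto1 and its paralog Gsto2 are adjacent on chromosome 19, which also carries Esrra, with 484 protein-coding genes between Gsto1 and Esrra in the RefSeq gene table. Gstp1, on the same chromosome with 129 such genes between it and Esrra, was at 0.061, and Prdx3, also on it, was at 0.0066. Prdx5, with 1 such gene between it and Esrra, was not analysed. Whether the position on this chromosome bears on the Gsto1 difference was not tested.

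Gsta4, the alpha-class transferase that conjugates reactive aldehydes of lipid peroxidation, gave 669.5, 523.8 and 537.3 in WT against 489.9, 331.8 and 325.4 in KO. The groups did not overlap, and the difference was -0.59 (SE 0.163, limma adjusted p = 0.0299). Gstk1, the kappa-class transferase found in mitochondria and peroxisomes, gave 982.3, 763.7 and 761.2 in WT against 691.6, 555.9 and 429.5 in KO. These groups did not overlap either (-0.58, SE 0.158, limma adjusted p = 0.0258). Among the KO libraries the order in the brightest probe sets was the same for all 3 transferases and for Esrra, with KO 3 lowest, KO 2 next and KO 1 highest. The other Gsto1 probe set had KO 2 lowest (447.0, against 547.6 in KO 3). The share of all genes with this order was not counted. KO 1, with Esrra at 48.6% of the WT mean, stood at 78.3% for Gsto1, 84.9% for Gsta4 and 82.8% for Gstk1. KO 2 and KO 3 stood at 55.9% and 51.4% for Gsto1, 57.5% and 56.4% for Gsta4, and 66.5% and 51.4% for Gstk1. Whether the transferase signals follow the residual Esrra signal was not tested.

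The 3 transferase calls were lost when single hearts were left out, while the direction held in all 18 alternative settings. Without WT 1 none of Gsto1, Gsta4 and Gstk1 was called (-0.60, -0.48 and -0.46, with limma adjusted p of 0.0991, 0.205 and 0.223). Without KO 3 none was called either (-0.58, -0.49 and -0.41, with limma adjusted p of 0.0528, 0.258 and 0.405). Without KO 2 only Gsto1 was called (-0.64, limma adjusted p = 0.0256, against 0.238 for Gsta4 and 0.0734 for Gstk1). Gsto1 was called under each scaling, at -0.68 with quantile normalization (limma adjusted p = 0.0230). Gsta4 and Gstk1 were not called there (both -0.56, limma adjusted p = 0.0539 and 0.0653) or with cyclic loess. In limma with no filter or with no intensity trend none of Gsto1, Gsta4 and Gstk1 was called (adjusted p = 0.103, 0.193 and 0.211, and 0.0740, 0.155 and 0.175). Without KO 1 all 3 were called, at -0.88, -0.77 and -0.74 (limma adjusted p up to 0.00327).

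**Figure D2:**
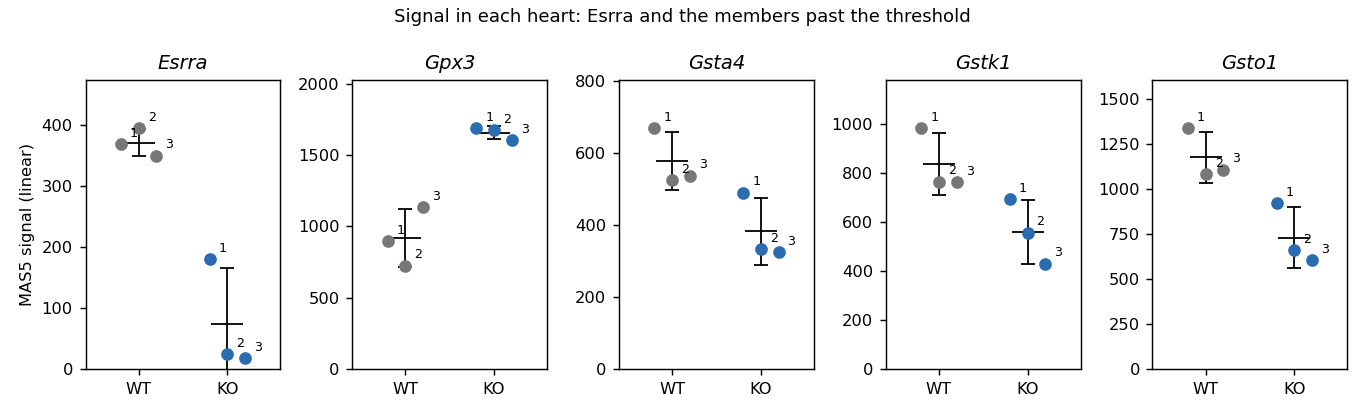
Each panel gives the deposited MAS5 signal on a linear axis from 0 for 1 gene, with a numbered point per heart and the mean with its SD (n = 3; the lower bar of Esrra in KO is cut at 0). The KO points of Gpx3 lie between 1608.2 and 1691.4, above all WT points. For Gsta4, Gstk1 and Gsto1, as for Esrra, KO 1 is the highest of the KO hearts and still below all WT hearts.

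The other 6 transferases did not pass. The mu-class genes Gstm1, Gstm2 and Gstm5 are clustered on chromosome 3, and Gstm1 was read from a probe set that may also bind its neighbours. Their differences were -0.0050, -0.19 and -0.11, with limma adjusted p from 0.703 to 0.995. Gstp1, the pi-class enzyme, which may not be separable from its close paralog Gstp2, stood at 0.061 and Gstt1, of the theta class, at 0.059 (limma adjusted p = 0.908 and 0.943). Gsta3 lay in the other direction from Gsta4, the second alpha-class gene of the set. It was dim, with 25.8, 7.5 and 11.3 in WT against 19.6, 33.9 and 40.1 in KO, and its groups overlapped through WT 1 and KO 1. Its difference was 0.63 (SE 0.218, limma adjusted p = 0.117), and without KO 1 it was called at 0.82 (limma adjusted p = 0.0172). The second Gsta3 probe set was at 0.040.

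Gpx3 gave 898.3, 724.4 and 1134.2 in WT against 1691.4, 1673.7 and 1608.2 in KO. The KO hearts lay close together, at 184%, 182% and 175% of the WT mean, and KO 1 was not intermediate. The difference was 0.86 (SE 0.142, limma adjusted p = 4.17e-05), and Gpx3 was called in all 18 alternative settings, with values from 0.71 to 1.02 and limma adjusted p up to 0.0329. In the brightest probe sets this was the only gene of the 37 with all KO signals above all WT signals.

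Markers of some other cells rose beside Gpx3. The summed signals of atrial and fibroblast markers were separated between the groups. Those of the cardiomyocyte, adipocyte, macrophage, endothelial and erythroid markers overlapped. All 6 atrial myocyte markers measured (Sln, Myl4, Myl7, Mybphl, Bmp10 and Nppa) rose, and none was at 0 in any heart. Their summed signal was 2921.5 to 9570.2 in WT and 13559.5 to 16181.9 in KO. Without WT 1, 2 of the 6 atrial and 1 of the 5 adipocyte markers tested were called. The hearts fell in the same order by that sum and by Gpx3, from WT 2 through WT 1, WT 3, KO 3 and KO 2 to KO 1. The KO signals of Gpx3 lay within 1608.2 to 1691.4, and Nppa and Bmp10 taken singly did not follow that order. Of the adipocyte markers 4 of 5 tested rose (2 without KO 2), and the sum of the 6 measured, most of which is Fabp4, was 3398.3 to 4111.8 in WT and 3786.1 to 5587.6 in KO. Lep was not tested and did not exceed 6.9. Adipoq, which defines fat cells, gave 15.7 to 22.3 in WT against 54.0, 390.7 and 323.0 in KO 1 to 3. The fibroblast markers, of which 1 of 5 rose (Col3a1, not called without any 1 WT heart or without KO 3) and all 5 had separated groups, summed to 5084.1 to 6086.2 in WT and 6683.3 to 7926.8 in KO. The part of these cells in the Gpx3 difference was not tested, and in whole hearts more cells of a type cannot be told apart from more RNA per cell.

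**Figure D3:**
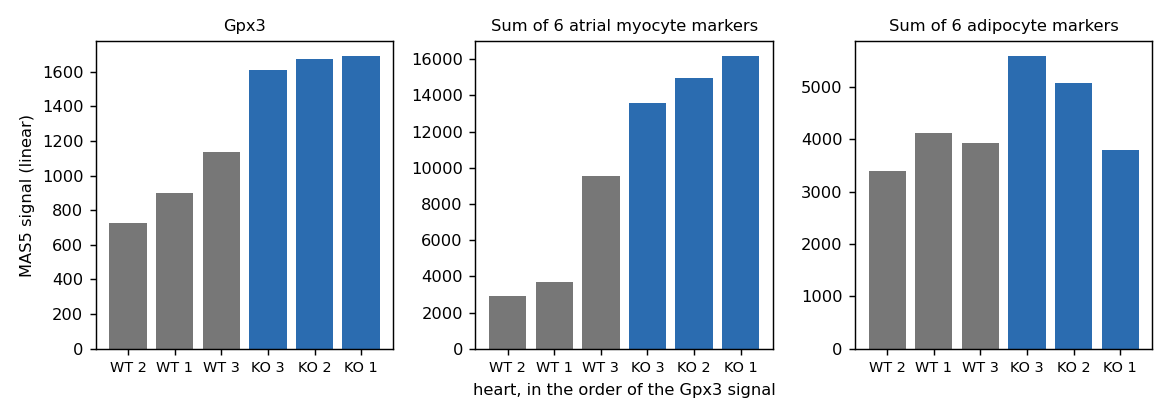
Bars give the linear MAS5 signal of Gpx3 (left), the summed signal of the 6 atrial myocyte markers (middle) and of the 6 adipocyte markers measured (right) in each heart, 1 array each, with hearts ordered by Gpx3 (grey WT, blue KO). The atrial sum climbs in the same order as Gpx3, from 2921.5 in WT 2 to 16181.9 in KO 1, and the adipocyte sum does not. The KO bars of Gpx3 lie within 1608.2 to 1691.4.

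Among the other glutathione peroxidases, Gpx1, the abundant cytosolic form, gave 738.4, 592.8 and 603.6 in WT against 702.7, 862.5 and 1143.4 in KO. KO 1 lay within the WT range and the other KO hearts above it. The difference was 0.45 (SE 0.156, limma adjusted p = 0.114), and without KO 1 it was 0.62 and was called (limma adjusted p = 0.0206). Gpx7 of the endoplasmic reticulum was at 0.41 (SE 0.184, limma adjusted p = 0.326), with the highest signals, 91.5 and 123.2, in KO 2 and KO 3. Gpx8, in the same compartment, was at 0.16 and Gpx4, which reduces lipid hydroperoxides in membranes, at -0.061 (limma adjusted p = 0.802 and 0.906). The second Gpx4 probe set was at -0.25 with separated groups and a limma adjusted p of 0.413. Of the 5 peroxidases, 1 rose, 4 did not pass, and 4 had positive differences.

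The mitochondrial enzymes had 4 negative differences of 5 and no call. Of the 6 named in the rule 5 were measured, and 0 passed in limma, with 2 at an unadjusted p under 0.05. For 3 of the 5, Sod2, Txn2 and Txnrd2, every KO signal was below every WT signal, against 9.41% of all genes. The median difference was -0.26 for these 5 and 0.0044 for the other 32. Taking each heart's median deviation from the WT mean, the mitochondrial genes stood at 0.14, -0.023 and -0.056 in WT against -0.17, -0.34 and -0.11 in KO. For the other genes it was 0.20, -0.13 and -0.083 in WT against 0.00083, -0.064 and 0.037 in KO, which overlapped. No test was made between these sets of genes. With Glrx5 and Gstk1, which the rule leaves among the others, counted as mitochondrial the medians were -0.27 and 0.022. Both of these moved genes had negative differences (-0.27 and -0.58). Genes listed as cytosolic, among them Gpx1 (0.45), Gpx4 (-0.061) and Gsr (-0.034), were not moved. Without KO 2 the mitochondrial median was -0.14, and without probe sets that may share probes with other transcripts it was -0.19.

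Sod2, the manganese superoxide dismutase of the matrix, gave 3305.6, 2728.8 and 2833.9 in WT against 2443.7, 2161.5 and 2469.0 in KO. The KO mean was 79.8% of the WT mean, and the difference was -0.32 (SE 0.119, limma adjusted p = 0.157). Its 4 probe sets all had negative differences, from -0.49 to -0.32, and 3 of the 4 had separated groups. With quantile normalization Sod2 was called (-0.27, SE 0.0562, limma adjusted p = 0.0297), as it was with cyclic loess (-0.26, limma adjusted p = 0.0320), where its standard error was smaller. The KO signals lay within 2161.5 to 2469.0, so KO 1 did not stand apart for this gene.

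Txn2, the mitochondrial thioredoxin, gave 672.1, 642.8 and 639.1 in WT against 556.5, 512.3 and 496.9 in KO. It stood at -0.31 (SE 0.148, limma adjusted p = 0.360), and its 3 probe sets ran from -0.31 to -0.19, with separated groups in 2. The set used may share probes with other transcripts. Without such sets Txn2 was at -0.19, from a set with 714.2, 502.9 and 647.1 in WT against 473.5, 580.7 and 561.5 in KO, which overlapped. Txnrd2, the reductase that serves it, gave 114.4, 116.8 and 108.6 in WT against 98.9, 75.2 and 103.5 in KO (-0.26, SE 0.172, limma adjusted p = 0.602). All 4 Txnrd2 probe sets were negative, from -0.39 to -0.077, with separated groups in 2. Prdx3, the peroxiredoxin that Txn2 reduces, gave 1680.8 to 2013.8 in WT and 1805.6 to 1863.4 in KO, with a difference of 0.0066 (SE 0.125). Glrx2, the mitochondrial glutaredoxin, was at -0.073 (SE 0.167). Thus in their brightest probe sets Prdx3 and Glrx2 overlapped between the groups where Txn2 and Txnrd2 did not.

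**Figure D4:**
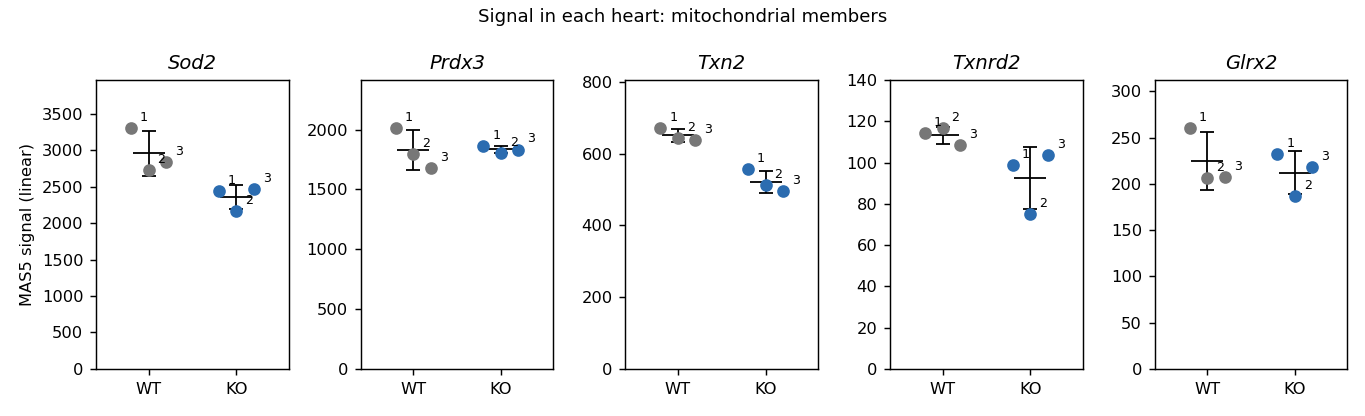
Panels give the linear MAS5 signal of the 5 mitochondrial genes measured, with a numbered point per heart and the mean with its SD (n = 3 per group). The KO points of Sod2, Txn2 and Txnrd2 lie below all WT points, while those of Prdx3 (1805.6 to 1863.4) lie within the WT range and those of Glrx2 overlap it.

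The cytosolic and secreted counterparts of these enzymes overlapped between the groups in their brightest probe sets, though not in every other set. Sod1, the copper and zinc dismutase of the cytosol, was at -0.12 (limma adjusted p = 0.826). Its 4 tested probe sets were all negative, from -0.36 to -0.12, with separated groups in 2. One of these was nearly as bright as the set used, with 1040.2, 843.2 and 875 in WT against 827.9, 777.6 and 794 in KO (-0.19), and the mean of the Sod1 probe sets gave -0.21. Sod3, the secreted form, was at 0.090 (limma adjusted p = 0.905), and its second set at 0.44, also with overlap. Cat, the peroxisomal catalase, gave 703.6 to 822.8 in WT and 575.5 to 801.8 in KO (-0.092, limma adjusted p = 0.882). Its second probe set was at -0.33, also with overlap. Txn1 and Txnrd1, the cytosolic thioredoxin and its reductase, were at 0.083 and -0.047, against -0.31 and -0.26 for the mitochondrial pair. Txn2 of that pair was at -0.19 without probe sets that may share probes. The second, dim Txn1 probe set, at 31.6 or less in every heart, was at -0.49 with separated groups. Prdx2, a cytosolic peroxiredoxin abundant in red cells, was at -0.0049. Its second, dimmer set was at -0.40 with separated groups (limma adjusted p = 0.322), and the mean of both was -0.20. Prdx4, of the endoplasmic reticulum, was at -0.22, and its tested sets ran from -0.22 to 0.18 with a mean of -0.041. Srxn1, the sulfiredoxin that repairs overoxidised peroxiredoxins, was at 0.44 (SE 0.192, limma adjusted p = 0.290). Its 4 probe sets were all positive, from 0.19 to 0.44. A dim one of them, at 0.19, had separated groups, with 21.8, 22 and 21.9 in WT against 22.1, 32.2 and 28.2 in KO.

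The glutaredoxins and the enzymes of glutathione supply did not pass. Glrx and Glrx3, cytosolic glutaredoxins, were at 0.056 and 0.031, and Glrx3 was dim, at 17.6 or less in every heart. Glrx5, a mitochondrial glutaredoxin of iron-sulfur cluster assembly, gave 1400.0, 1080.3 and 1131.2 in WT against 1073.1, 915.1 and 988.0 in KO. These did not overlap, and the difference was -0.27 (SE 0.140, limma adjusted p = 0.434). Gclc and Gclm, the catalytic and modifier subunits of the enzyme that limits glutathione synthesis, were at 0.092 and -0.28, and Gsr, glutathione reductase, at -0.034. Their limma adjusted p ran from 0.576 to 0.970.

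Nqo1 and Hmox1, induced by the oxidant-sensing factor NRF2, were at 0.014 and -0.14 with limma adjusted p of 0.988 and 0.872. Hmox1, which encodes the inducible heme oxygenase, was dim, with 15.5 to 26.4 in WT and 11.3 to 32.6 in KO. Of 9 tested genes that encode NRF2 and its controls, 0 passed in limma, and 0 were at an unadjusted p under 0.05. Nfe2l2, the gene of NRF2, was at 0.24 and its relative Nfe2l1 at -0.21.

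The metallothioneins Mt1 and Mt2, neighbours on chromosome 8, were both positive and neither passed. Mt1 gave 2219.4, 1853.3 and 1802.2 in WT against 2349.5, 1946.2 and 2702.2 in KO, where WT 1 exceeded KO 2. The difference was 0.24 (SE 0.129, limma adjusted p = 0.449). Mt2 gave 200.4 to 321.9 in WT and 242.0 to 296.2 in KO (0.17, limma adjusted p = 0.788). In both genes KO 3 was the highest and KO 2 the lowest of the KO hearts. Mt1 was read from a probe set that may share probes with other transcripts, and its other set was at 6.2 or less in every heart.

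Related pathway genes outside the 40 gave few calls. In metal and heme handling 1 of 14 tested fell, Tfrc, the transferrin receptor, with 1032.8, 510.9 and 792.7 in WT against 194.9, 514.6 and 764.5 in KO (-0.79, limma adjusted p = 0.0491). KO 2 and KO 3 lay within the WT range. Without KO 1, whose Esrra goes against its label, Tfrc was at -0.25 and was not called (limma adjusted p = 0.659), nor was it without WT 1 (-0.56, limma adjusted p = 0.589). Slc31a1, a copper importer, and Slc30a1, a zinc exporter induced through the same metal response elements as the metallothioneins, were at -0.39 and -0.31 and did not pass. Of 20 thioredoxin-like and other redox genes 1 fell and 1 rose. Txnip, which binds and inhibits thioredoxin, fell from 2308 ± 263 to 1286 ± 150 (SD, n = 3; -0.84, limma adjusted p = 1.42e-05), and Pon1, paraoxonase, rose from 9.67 ± 5.79 to 35.8 ± 19.6 (SD, n = 3) with overlapping groups (limma adjusted p = 0.0105). Txnip was called whichever heart was left out, while Pon1 was not called without WT 1, KO 2 or KO 3 (0.89, 0.75 and 0.78, with limma adjusted p of 0.251, 0.110 and 0.0907). Akr1b8 (0.53) and Txnrd3 (-0.43) did not pass.

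In the genes that supply NADPH, which recharges both systems, 0 of 12 passed in limma, with 4 at an unadjusted p under 0.05. Idh1, the cytosolic isocitrate dehydrogenase, was at -0.58 (limma adjusted p = 0.0595) and Mthfd1 at -0.46. Nadk, another of the 4 and named after its values were seen, was at 0.38 with all KO signals above all WT signals. Idh1 was called lower without WT 3 or KO 2. Without KO 1 Nnt, the mitochondrial transhydrogenase that makes NADPH, was called lower (-0.52, limma adjusted p = 0.00494, against -0.32 with all hearts, where it was not called), and it is named after its values were seen. In glutathione synthesis and turnover 0 of 10 passed, with 5 at an unadjusted p under 0.05. Chac1 and Chac2, which break glutathione down, were at -0.63 and -0.51 (limma adjusted p = 0.0815 and 0.123). Without KO 1 both were called lower (-0.76 and -0.70, limma adjusted p = 0.00909 and 0.0231). Chac1 was also called lower without WT 2, WT 3 or KO 2. With all hearts the Chac1 groups overlapped. Ggt5, named after its values were seen, was called higher without KO 2. Of the 5, Dpep1 was at 0.48 with all KO signals above all WT signals, and Ggct at -0.42 with all below. Dpep1 and Ggct are also named after their values were seen. Of 11 transferases outside the set 0 passed in limma (0 unadjusted), with Gstt3 at 0.43 and Gstm7 at -0.32. Of 13 selenoproteins and methionine sulfoxide reductases 0 passed (0 unadjusted), with Msra at -0.28 and Selenom at 0.21. These lists had medians from -0.11 to 0.044, close to the -0.028 of all genes.

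**Figure D5:**
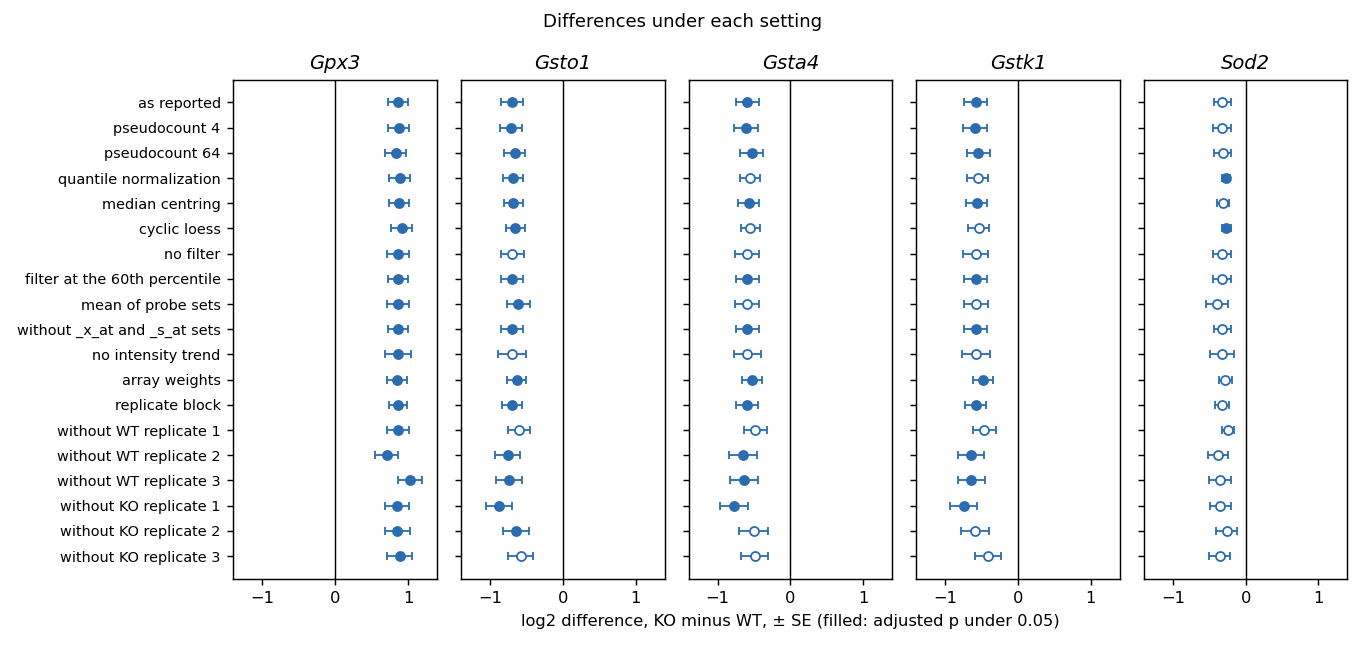
Each panel gives the log2 difference (KO minus WT) with its SE for 1 gene under the values as reported and 18 alternatives, listed on the left; filled points have an adjusted p under 0.05. Gpx3 is filled throughout, Gsto1 in 14 alternatives, Gsta4 and Gstk1 in 10 each, and Sod2 in 2, with no point crossing 0.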

How the data were processed

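The deposited values are linear signal intensities per probe set, made by the authors with MAS5 per the submitters' processing notes. Neither a scaling target nor detection calls were known here, which leaves the background level of dim signals unknown. The array holds 45099 probe sets with 62 controls, and the platform table pairs 34945 with 1 gene symbol, 932 with several and 9160 with none. Log2(signal + 16) was taken without further scaling. Probe sets with a mean at or above the 40th percentile (log2 4.595) were kept. The brightest of a gene's sets stood for it. The groups were fitted across all genes with limma 3.58.1 in R 4.3.3 (lmFit, then eBayes with trend). With 45.6 prior degrees of freedom, a gene's p depends little on its own spread. The procedure was tested on simulated data.

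Per the labels each sample is 1 mouse. Mouse numbers recur in both groups, and the labels do not say that equal numbers pair. Deviations correlated at -0.017 to 0.029 for equal numbers and at -0.079 to 0.058 for unequal ones. So few hearts cannot decide whether they pair, and they were fitted unpaired. A header comment numbers the array of WT 1 as another WT mouse, and the title was used. Genes and lists were chosen with earlier results of these data known. Named were all members, Esrra, and from each pathway list the called genes and the 2 others of smallest p. Alternatives were other pseudocounts (4, 64), scalings, filters, probe-set rules, weights per array, a variance without trend, a replicate block and dropping each heart in turn. Dropping hearts was applied to the pathway and marker genes after seeing the data. Other lists covered oxidant-producing enzymes, glucocorticoid responsive genes and markers of 7 cell types. Promoter sequences are from RefSeq (GRCm38.p6).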

Additional observations from a re-analysis of the deposited data

How the results depend on the processing

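Of the 37 genes, Gpx3 was the only one called under all 18 alternatives. The count of genes called lower among the 37 was 3 as reported, 0 with no filter (limma; 5 at an unadjusted p under 0.05), 0 with no intensity trend (3 unadjusted), 1 with the mean of a gene's probe sets, and 0 to 3 leaving out 1 heart (0 without WT 1 or KO 3, 5 unadjusted in each). The count called higher was 1 as reported, 2 with a filter at the 60th percentile (with Gsta3), 4 with array weights (with Gpx1, Srxn1 and Gsta3), and 1 to 3 leaving out 1 heart. Over all genes 231 were higher and 153 lower. These became 48 and 18 with no filter and 114 and 57 with no intensity trend, 434 were higher with array weights, and leaving out 1 heart gave 105 to 301 and 22 to 208 (105 and 22 without WT 1). Esrra ran from -3.39 to -2.12 leaving out 1 heart, and without WT 1 it was not called (-2.59, limma adjusted p = 0.0675). The mitochondrial median ran from -0.31 to -0.14. With the replicate block 1 of the 37 was higher and 3 lower, and 237 and 175 of all genes, and the block changed no call among the 37. Signs turned only for genes near 0 that were called in none of these settings. With quantile normalization Gpx4 was at 0.021 and Prdx2 at 0.016. Prdx2 was at 0.0095 with median centring, 0.051 with cyclic loess and 0.064 with array weights, and Gstm1 at 0.0093, 0.046 and 0.053, and at 0.073 with the mean of probe sets. Txn1 was at -0.20 with the mean of probe sets, and Txnrd1 at 0.070, Gsr at 0.041 and Nqo1 at -0.045 with array weights. Leaving out 1 heart, the ranges were -0.17 to 0.061 for Cat, -0.15 to 0.037 for Gpx4, -0.084 to 0.10 for Prdx2, -0.052 to 0.077 for Prdx3, -0.024 to 0.20 for Txn1, -0.15 to 0.11 for Txnrd1, -0.067 to 0.24 for Glrx, -0.14 to 0.031 for Glrx2, -0.14 to 0.20 for Glrx3, -0.048 to 0.22 for Gclc, -0.11 to 0.092 for Gsr, -0.12 to 0.12 for Nqo1, -0.39 to 0.029 for Hmox1, -0.057 to 0.081 for Gstm1, -0.010 to 0.17 for Gstp1 and -0.045 to 0.22 for Gstt1. The cause of these changes was not tested. The number of arrays limits all of these values, and Glrx3, Hmox1 and Gsta3 were dim enough that signal over background is uncertain.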

Other observations

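The enzymes that produce oxidants gave no call. Of 11 tested, 0 passed in limma and 2 were at an unadjusted p under 0.05. Xdh, xanthine dehydrogenase, had a signal of 202 ± 13.1 in WT and 283 ± 47.5 in KO (SD, n = 3, limma adjusted p = 0.170). Nos1, neuronal nitric oxide synthase, was dim at 20.5 ± 6.43 and 10.2 ± 4.76 (limma adjusted p = 0.342).

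Of 11 genes that respond to glucocorticoids, which also induce metallothioneins, 3 rose and 0 fell, with a median difference of 0.35. Fkbp5, a chaperone of the glucocorticoid receptor, rose from 59.1 ± 5.16 to 129 ± 13.7 (SD, n = 3; limma adjusted p = 0.000182). Cdkn1a, a cell cycle inhibitor, rose from 87.2 ± 14.6 to 210 ± 98.9 (limma adjusted p = 0.000412), and Tsc22d3 from 320 ± 44.9 to 512 ± 86.7 (limma adjusted p = 0.0123). Leaving out 1 heart, Fkbp5 was called each time, Cdkn1a not without WT 1 (1.16, limma adjusted p = 0.0835) and Tsc22d3 not without WT 2, WT 3 or KO 3 (0.58, 0.61 and 0.53, with limma adjusted p of 0.0758, 0.0659 and 0.196). Errfi1 (0.57) and Zbtb16 (0.45) did not pass, though Errfi1 was called without KO 2 and Zbtb16 without WT 2. Negative differences were seen in 3 of the 11, Lcn2 (-0.35), Pdk4 (-0.32) and Klf9 (-0.11). Pdk4 was called lower without KO 2. These 3 genes are named after their values were seen. Mt1 and Mt2 were at 0.24 and 0.17.

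Among macrophage markers 1 of 8 rose, Cd163, from 65.8 ± 11.2 to 132 ± 22.4 (limma adjusted p = 0.00152), with summed signals of 2087.4 to 3115.7 in WT and 2288.5 to 3300.1 in KO. Endothelial markers gave 0 of 5 and erythroid markers 0 of 2 (limma; 1 and 0 at an unadjusted p under 0.05).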
